A study of Mus musculus with 9 samples.

Results

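The adult hemoglobin genes Hba-a1, Hba-a2, Hbb-bs and Hbb-bt and the erythroid heme synthesis gene Alas2 were followed in RNA-seq of mouse substantia nigra, the midbrain region that holds the dopamine neurons lost in Parkinson's disease. These 5 genes, of 20591 in the deposited table, were picked from it by symbol, and they were picked on their known role with their levels in these libraries already known, so their levels and differences are a description, and no p-value or call given for them, or for ratios between them, is independent evidence. The mice of all 9 libraries were C57BL/6, were sham-operated and were allocated to a diet at 12 weeks of age. The first group was fasted for 1 day, the second was kept for 1 week on intermittent fasting with 3 fasts of 24 hours on alternate days, and the third ate ad libitum for 1 week and was moved between cages on the same schedule, with 3 libraries in each of the 3 groups. Each fast began 2 hours before lights off. Whether each library is a separate animal is not stated in the labels, and a p-value therefore reflects only how far these libraries vary, which may be partly technical variation. The sources used here also do not say how long after the last fast tissue was taken, or whether blood was flushed from the brain before dissection.

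Hemoglobin is a tetramer of alpha and beta globin chains, each of which holds a heme group that binds oxygen. In the adult mouse the alpha chains come from the paired genes Hba-a1 and Hba-a2, and in C57BL/6 mice the beta chains come from Hbb-bs and Hbb-bt. Alas2 is the erythroid form of 5-aminolevulinate synthase, the first enzyme of heme synthesis, while Alas1 serves the same step in other tissues. These transcripts are abundant in reticulocytes, and globin transcripts have also been described in neurons and glia, midbrain dopamine neurons among them. In a lysate of whole tissue, fewer cells of a type and less RNA per cell cannot be told apart.

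The stretches of 250 bases before the start of the members' genes are shown because erythroid genes are textbook cases of control through short elements bound by GATA and Kruppel-like factors, and because these genes varied together across the libraries. They are RefSeq sequences of build GRCm38.p6, written 5′ to 3′ on the gene's own strand, and all 5 members matched an entry. Capitals mark the motifs GATAA or CCAAT or TATAA on either strand. Hba-a1 lies at chr11:32283422-32283671 (+ strand), Hbb-bs at chr7:103827929-103828178 (− strand), Hbb-bt at chr7:103813924-103814173 (− strand) and Alas2 at chrX:150547167-150547416 (+ strand). Hba-a2, at chr11:32296242-32296491 (+ strand), is not printed, because its window matched that of Hba-a1 at 247 of 247 bases once shifted by 3 bases.
Hba-a1: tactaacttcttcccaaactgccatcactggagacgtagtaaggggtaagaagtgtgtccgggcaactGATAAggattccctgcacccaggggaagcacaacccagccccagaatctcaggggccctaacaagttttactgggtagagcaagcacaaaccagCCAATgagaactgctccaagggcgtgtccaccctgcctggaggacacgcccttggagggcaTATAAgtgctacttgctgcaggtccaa
Hbb-bs: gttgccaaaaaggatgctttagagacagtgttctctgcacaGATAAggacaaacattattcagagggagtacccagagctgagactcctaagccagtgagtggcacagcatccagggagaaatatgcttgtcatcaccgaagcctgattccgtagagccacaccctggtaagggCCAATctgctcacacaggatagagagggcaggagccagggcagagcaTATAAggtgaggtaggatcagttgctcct
Hbb-bt: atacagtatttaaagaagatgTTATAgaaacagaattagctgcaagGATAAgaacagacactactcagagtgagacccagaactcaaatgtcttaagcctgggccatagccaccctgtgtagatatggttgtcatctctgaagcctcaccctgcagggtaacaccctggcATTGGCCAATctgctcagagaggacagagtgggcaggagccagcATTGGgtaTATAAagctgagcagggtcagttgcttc
Alas2: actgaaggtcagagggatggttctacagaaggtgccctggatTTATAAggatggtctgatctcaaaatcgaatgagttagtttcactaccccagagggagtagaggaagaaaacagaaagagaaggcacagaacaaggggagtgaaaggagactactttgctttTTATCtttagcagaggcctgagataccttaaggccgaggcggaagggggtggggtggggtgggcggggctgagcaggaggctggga
The 4 globin windows shared one layout, with GATAA between 178 and 209 bases before the start, CCAAT on the gene's strand between 71 and 91 bases before it and TATAA on that strand between 23 and 30 bases before it. Hbb-bt held 2 further CCAAT on the opposite strand and 1 further TATAA. Alas2 differed, with its GATAA on the opposite strand 82 to 86 bases before the start, its TATAA more than 200 bases before the start (203 to 208 bases, on both strands, overlapping) and no CCAAT in the window. CACCC, searched on both strands too and left in lower case, was found in all 5 windows. No match of one motif overlapped a match of another. Among all 32851 promoter windows of the table, several of which can belong to 1 gene, 22.6% held GATAA, 33.9% CCAAT, 22.8% TATAA and 52.0% CACCC, and all 4 motifs were held by 4 of the 5 members, against 0.968% of windows. The motifs are known elements of such genes, and the windows of Hba-a1 and Hba-a2 are nearly the same sequence, so nothing is read from this count. Such matches describe letters in the window and are not binding sites.

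Library totals were 37732284 to 46522059 estimated counts in the 1 day group, 36109995 to 54248856 in the 1 week group and 38516394 to 45693865 in the ad libitum group. Levels are given as CPM, counts scaled to a common library size by TMM factors, which correct for differences in composition between libraries. Markers of the labelled tissue were present, since all 14 listed dopaminergic genes were measured and Th, which catalyses the limiting step in making dopamine, was at 76.1 to 162 CPM in the 1 day group, 118 to 296 CPM in the 1 week group and 160 to 207 CPM in the ad libitum group. The second replicates of the 1 day and 1 week groups stood apart, with limma quality weights of 0.213 and 0.507, while the remaining 7 had weights of 0.972 to 1.93. The third replicate of the 1 week group stood apart in forebrain markers, as described below, and the members' differences are also given with 1 of these libraries left out.

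The 4 globin genes together made up 0.0285 to 0.0333% of counts in the 1 day libraries, 0.0502 to 0.152% in the 1 week libraries and 0.0394 to 0.0463% in the ad libitum libraries. Their summed level was 322, 278 and 323 CPM in the 1 day libraries, 491, 614 and 1482 CPM in the 1 week libraries and 475, 439 and 446 CPM in the ad libitum libraries. Every 1 day library was thus below every ad libitum library, and every 1 week library was above them, by little in the first replicate and most in the third. Per kb of transcript, the order of levels was Hbb-bs, Hba-a2, Hba-a1, Hbb-bt and Alas2 in each of the 9 libraries. In the ad libitum group these levels were 285 ± 14.8, 259 ± 10.7, 151 ± 7.84, 36.3 ± 1.66 and 3.62 ± 0.0363 CPM per kb (SD, n = 3), and no neighbours in the order overlapped. Within the 1 week group the range of Hbb-bs, 289 to 912 CPM per kb, overlapped that of Hba-a2, 253 to 837 CPM per kb.

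Of the alpha chain genes, Hba-a1 (ENSMUSG00000069919) was at 71.6, 32.0 and 72.0 CPM in the 1 day libraries, 126, 110 and 370 CPM in the 1 week libraries and 112, 101 and 105 CPM in the ad libitum libraries. Hba-a2 (ENSMUSG00000069917) was at 98.3, 51.5 and 96.9 CPM in the 1 day libraries, 158, 140 and 464 CPM in the 1 week libraries and 148, 137 and 145 CPM in the ad libitum libraries. For both genes every 1 day library was below every ad libitum library, the second 1 day replicate was the lowest of all, and the third 1 week replicate was far above the other 2 of its group, which lay close to the ad libitum values. Of the beta chain genes, Hbb-bs (ENSMUSG00000052305) was at 133, 176 and 132 CPM in the 1 day libraries, 181, 328 and 573 CPM in the 1 week libraries and 190, 175 and 172 CPM in the ad libitum libraries. Its second 1 day replicate lay inside the ad libitum range and its first 1 week replicate did too. Hbb-bt (ENSMUSG00000073940) was at 19.4, 18.1 and 21.4 CPM in the 1 day libraries, 25.5, 36.7 and 75.6 CPM in the 1 week libraries and 25.6, 26.6 and 24.3 CPM in the ad libitum libraries. The 1 day values of Hbb-bt were all below the ad libitum values, and 2 of its 3 values at 1 week were above them.

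Alas2 (ENSMUSG00000025270) was at 4.99, 4.05 and 5.90 CPM in the 1 day libraries, 7.50, 8.48 and 23.3 CPM in the 1 week libraries and 7.46, 7.32 and 7.34 CPM in the ad libitum libraries. It rested on the fewest counts of the 5 genes, between 157 in the second 1 day replicate and 1009 in the third 1 week replicate. Its groups did not overlap, although the first 1 week replicate exceeded the highest ad libitum library only in the second decimal.

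**Figure D1:**
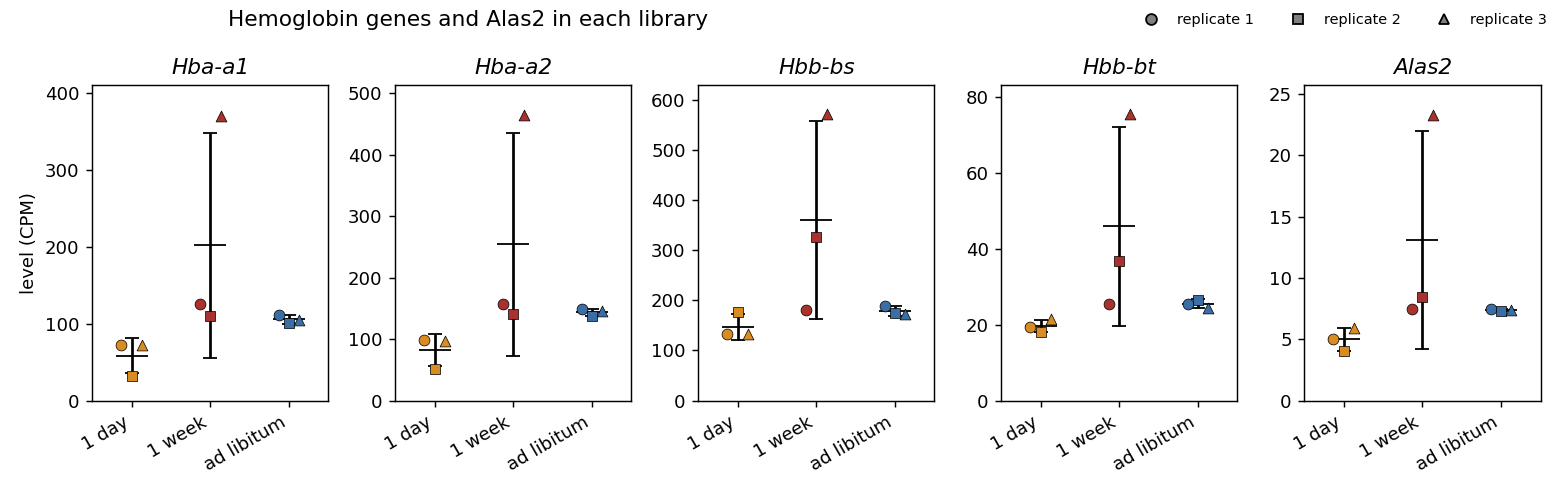
Levels of the 5 genes (CPM, linear axes that start at 0 and differ between panels) in the 1 day, 1 week and ad libitum libraries. Points are libraries, shaped by replicate number, and bars give mean and SD of 3 libraries. In every panel the third 1 week replicate is the highest library, and in all panels but Hbb-bs the 1 day libraries lie below the ad libitum libraries.

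After 1 day of fasting, the 5 genes averaged less than in ad libitum mice. The log2 fold change was -0.85 (SE 0.49) for Hba-a1, -0.80 (SE 0.46) for Hba-a2, -0.28 (SE 0.34) for Hbb-bs, -0.38 (SE 0.33) for Hbb-bt and -0.56 (SE 0.38) for Alas2. Mean levels were 58.5 ± 23.0 CPM at 1 day and 106 ± 5.48 CPM ad libitum for Hba-a1, and 4.98 ± 0.924 CPM at 1 day and 7.37 ± 0.0739 CPM ad libitum for Alas2 (SD, n = 3 each). In 4 of the 5 genes every 1 day library was below every ad libitum library, which 10.3% of the 20535 genes tested also showed. Without the second 1 day replicate the log2 differences were -0.56 for Hba-a1, -0.56 for Hba-a2, -0.43 for Hbb-bs, -0.32 for Hbb-bt and -0.44 for Alas2. The alpha chain genes thus came closer to the other 3 when that library was left out. Hbb-bt and Alas2 were moved more by the third 1 day replicate, without which their differences were -0.44 and -0.70.

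After 1 week of intermittent fasting, the same genes averaged more than in ad libitum mice. The log2 fold change was 0.93 (SE 0.49) for Hba-a1, 0.82 (SE 0.45) for Hba-a2, 1.01 (SE 0.34) for Hbb-bs, 0.85 (SE 0.33) for Hbb-bt and 0.83 (SE 0.38) for Alas2. These averages rested largely on the third 1 week replicate, without which the log2 differences were 0.16, 0.06, 0.51, 0.29 and 0.12 in the same order. For Alas2 alone was every 1 week library above every ad libitum library (1 of 5 genes), which 10.9% of all genes tested showed.

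Between the fasted groups, 1 week against 1 day, the averages differed most. The log2 fold change was 1.79 (SE 0.50) for Hba-a1, 1.63 (SE 0.46) for Hba-a2, 1.29 (SE 0.34) for Hbb-bs, 1.23 (SE 0.33) for Hbb-bt and 1.39 (SE 0.39) for Alas2, and 1.01, 0.86, 0.79, 0.66 and 0.68 in that order without the third 1 week replicate. In 5 of 5 genes every 1 week library was above every 1 day library, as in 4.5% of all genes tested. The genes were chosen with these values known, and the members share one source of RNA in each library, so nothing is read from this count. The comparisons with the ad libitum group share its 3 libraries.

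None of the 5 genes passed edgeR's quasi-likelihood test (adjusted p under 0.05 over 20535 genes) in any of the 3 comparisons. At 1 day against ad libitum 12 genes or 0.0584% of those tested passed it, at 1 week against ad libitum 63 or 0.307%, and at 1 week against 1 day 0 or 0.0%, where 1071 genes had an unadjusted p under 0.05, DESeq2 passed 3 genes and limma voom passed 0. Before adjustment, edgeR gave a p under 0.05 for 0 of the 5 genes at 1 day (9.27% of all genes tested), 2 at 1 week (Hbb-bs and Hbb-bt, against 11.2% of all genes) and 5 at 1 week against 1 day (against 5.22% of all genes), counts from which nothing is read because the genes were chosen with these values known. DESeq2 and limma voom with quality weights passed 0 of them in each. Without the first 1 week replicate, Hbb-bs did pass at 1 week against ad libitum, with a log2 difference of 1.33 (SE 0.22).

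**Figure D2:**
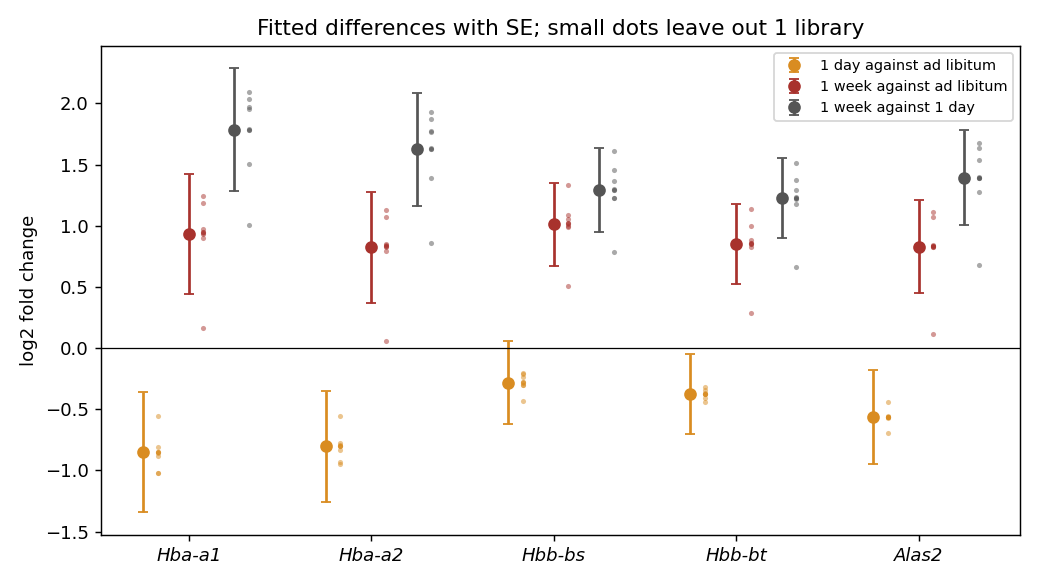
Log2 fold changes of the 5 genes in 3 comparisons (large points, with SE) and the same fold changes when 1 library is left out (small dots), with a line at 0. The 1 day differences lie below 0 and those of the 1 week group above it, and the lowest dot of each 1 week comparison is the fit without the third 1 week replicate.

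The balance between the chains was examined within each library, where the depth of the library cancels. The ratio of alpha to beta globin, per kb, was 1.17, 0.452 and 1.15 in the 1 day libraries, 1.43, 0.715 and 1.34 in the 1 week libraries and 1.26, 1.24 and 1.33 in the ad libitum libraries. It lay between 1.15 and 1.43 in 7 libraries and below 1 in both second replicates of the fasted groups, the libraries of lowest quality weight. The groups overlapped, and an exact two-sided permutation test over the 1680 assignments of libraries to groups gave p = 0.357 (adjusted p = 0.6 over 4 ratios). The transcripts of Hba-a1 and Hba-a2 have a GC content of 57.2% and 56.9%, against 51.3% for Hbb-bs, 50.8% for Hbb-bt and 53.3% for Alas2. In the second 1 day replicate, the 10% of genes richest in GC had a median log2 level of -0.42 relative to the mean of all libraries, and elsewhere it was -0.01 to 0.16, with 0.04 in the second 1 week replicate. For transcripts of up to 800 bases, which include all 4 globins, that median was -0.23 in the second 1 day replicate and -0.07 in the second 1 week replicate, the 2 lowest values among the libraries. The part of GC content, length or library quality in the chain ratio was not tested.

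The 2 alpha genes kept a narrower ratio. Hba-a1 to Hba-a2, per kb, was 0.577, 0.492 and 0.589 in the 1 day libraries, 0.632, 0.620 and 0.633 in the 1 week libraries and 0.596, 0.583 and 0.571 in the ad libitum libraries. All 1 week libraries were above all libraries of the other groups, with an exact permutation p of 0.0214 by the same test, and the adjusted p of 0.0857 missed the threshold of 0.05. The smallest p this design allows is 0.003571, and the genes were picked with their levels known, so the p is not independent evidence. The transcripts share 477 stretches of 31 bases, which are 91.0% of those in Hba-a2 and 71.3% of those in Hba-a1, and Salmon divides the reads of such stretches between the genes by estimate, so the level of either gene alone is uncertain. Hbb-bs and Hbb-bt share 400 such stretches, 66.9% and 59.4% of theirs. The ratio of Hbb-bt to Hbb-bs was 0.131, 0.0918 and 0.145 in the 1 day libraries, 0.126, 0.100 and 0.118 in the 1 week libraries and 0.121, 0.136 and 0.126 in the ad libitum libraries, with overlapping groups (exact permutation p = 0.721, adjusted p = 0.721). It too was lowest in the second 1 day replicate.

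Alas2, which makes heme and not globin and shares no stretch of 31 bases with the globin genes, kept nearly a fixed proportion to them. Its ratio to summed globin, per kb, was 0.00472, 0.00447 and 0.00558 in the 1 day libraries, 0.00466, 0.00423 and 0.00480 in the 1 week libraries and 0.00478, 0.00508 and 0.00500 in the ad libitum libraries. From the lowest to the highest library the ratio spanned 1.32-fold, while summed globin spanned 5.33-fold and Alas2 itself 5.75-fold. No group stood apart in the ratio (exact permutation p = 0.45, adjusted p = 0.6). In the third 1 week replicate, with 1482 CPM of globin, the ratio was inside the ad libitum range.

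**Figure D3:**
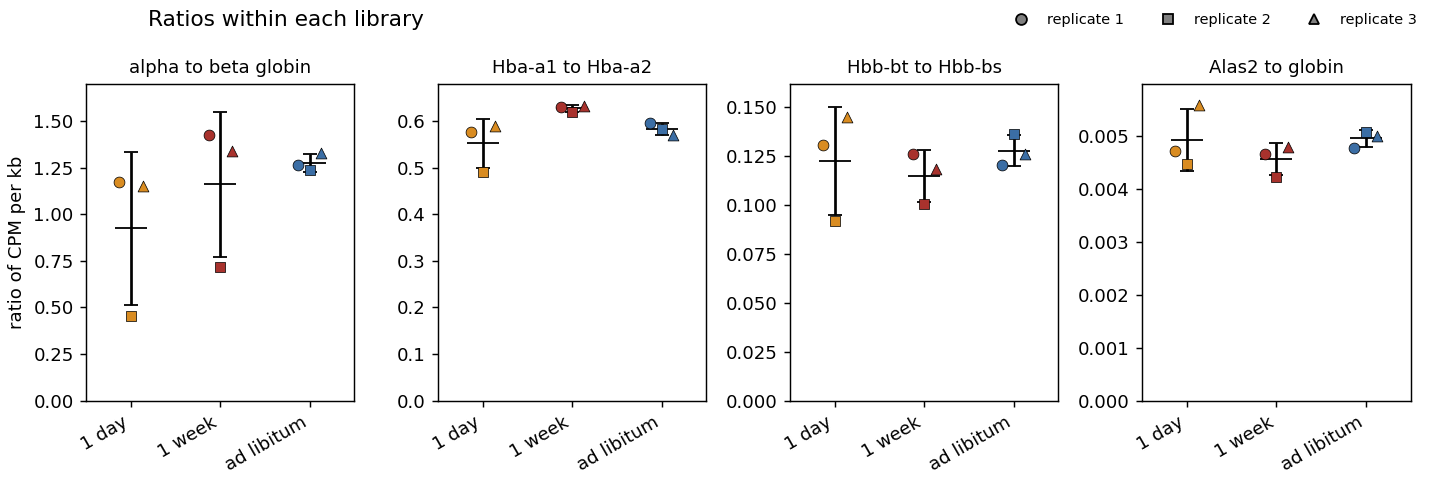
Ratios of CPM per kb within each library in the 1 day, 1 week and ad libitum groups, with points for libraries and bars for mean and SD (n = 3), on linear axes that start at 0. Alpha to beta globin is low in the second replicates of both fasted groups (0.452 at 1 day and 0.715 at 1 week), and Alas2 to globin stays between 0.00423 and 0.00558.

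**Figure D4:**
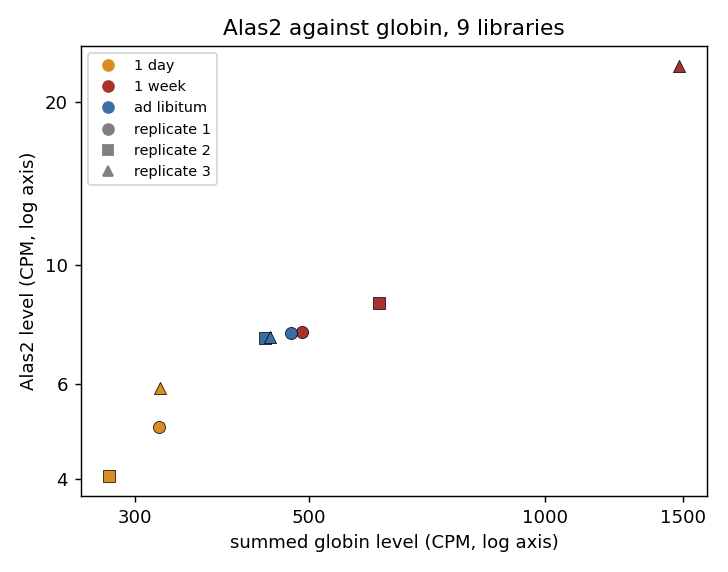
Alas2 level against summed globin level in the 9 libraries (CPM, both axes logarithmic), coloured by group and shaped by replicate. The 1 day libraries lie at the low end of one line, the third 1 week replicate at its high end, and the ad libitum libraries between 439 and 475 CPM of globin.

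The 8 other enzymes of heme synthesis, which every cell uses, stayed within a narrow range. Their levels summed to 225 to 233 CPM in the 1 day libraries, 222 to 234 CPM in the 1 week libraries and 240 to 250 CPM in the ad libitum libraries, so every fasted library was below every ad libitum library. The median log2 fold change of the 8 was -0.18 at 1 day and -0.15 at 1 week, against 0.00 for all genes in each. Alas2 lay on the same side of 0 as 7 of the 8 at 1 day and as 2 of the 8 at 1 week, and the difference between Alas2 and these genes was not tested. At 1 day edgeR passed 0 of the 8 (1 with an unadjusted p under 0.05, 0 by DESeq2 and 0 by limma voom), and at 1 week it passed 0 (1 unadjusted, 1 by DESeq2, 1 by limma voom). Alas1, the general form of the first enzyme, averaged 36.5 ± 3.39 CPM at 1 day, 38.1 ± 3.57 CPM at 1 week and 41.8 ± 1.07 CPM ad libitum (SD, n = 3 each). Fech, which inserts iron into the finished ring, averaged 57.8 ± 4.33 CPM at 1 day, 62.1 ± 4.01 CPM at 1 week and 61.4 ± 4.16 CPM ad libitum. In the third 1 week replicate, where Alas2 was at 23.3 CPM, Alas1 was at 40.7 CPM and Fech at 64.2 CPM, both inside the ad libitum range.

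The enzyme behind the DESeq2 and limma voom calls was Uros, uroporphyrinogen III synthase, which was named after its values were seen. It was at 11.5, 11.4 and 11.2 CPM in the 1 day libraries, 9.99, 9.84 and 9.91 CPM in the 1 week libraries and 14.2, 13.1 and 13.2 CPM in the ad libitum libraries. Each group was tight and none overlapped another. At 1 week its log2 fold change was -0.45 (SE 0.10), with an adjusted p of 0.134 by edgeR, 0.00515 by DESeq2 and 0.0463 by limma voom. At 1 day it was -0.25 (SE 0.10), with an adjusted p of 0.528 by edgeR.

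**Figure D5:**
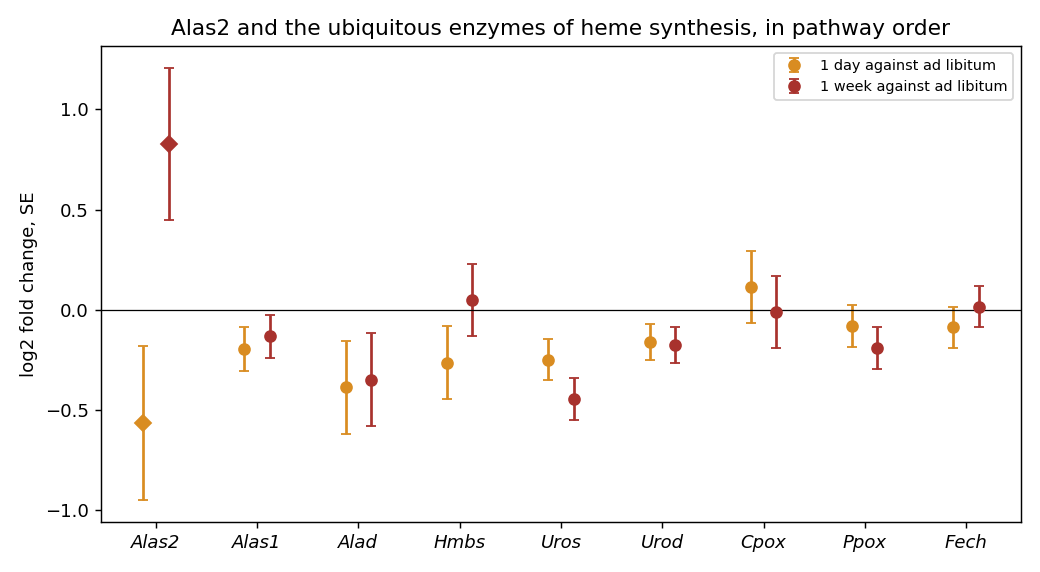
Log2 fold changes with SE of Alas2 (diamonds) and the 8 other enzymes of heme synthesis (circles), in the order of the pathway, at 1 day and at 1 week against ad libitum. Alas2 lies at -0.56 at 1 day and 0.83 at 1 week, while the other enzymes lie between -0.45 and 0.12.

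Genes that serve heme synthesis without being part of the ring pathway, such as mitochondrial carriers and iron-sulfur assembly factors, were all measured (15 of 15). EdgeR passed 0 of them in each comparison (0 unadjusted, 0 by DESeq2 and 0 by limma voom), with a median log2 fold change of -0.12 at 1 day, -0.02 at 1 week and 0.00 between 1 week and 1 day. Slc25a39, a mitochondrial glutathione carrier, was at 56.0, 24.7 and 56.6 CPM in the 1 day libraries, 56.6, 41.7 and 50.9 CPM in the 1 week libraries and 62.7, 66.6 and 61.0 CPM in the ad libitum libraries. It was lowest in the same 2 second replicates in which alpha globin was low relative to beta globin. Iscu, a scaffold for iron-sulfur clusters, was highest in those libraries, at 148 CPM in the second 1 day replicate and 106 CPM in the second 1 week replicate against 76.4 to 94.1 CPM in the other 7.

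Of the 12 listed globins other than the members, 4 were measured and none passed edgeR in any comparison (0 unadjusted, 0 by DESeq2 and 0 by limma voom). Cygb, cytoglobin, which is made in fibroblast-like cells and some neurons, averaged 124 ± 18.8 CPM at 1 day, 125 ± 12.1 CPM at 1 week and 107 ± 9.38 CPM ad libitum (SD, n = 3 each). Ngb, the neuronal globin, averaged 22.8 ± 8.03 CPM at 1 day, 13.1 ± 5.92 CPM at 1 week and 14.0 ± 4.07 CPM ad libitum. Its lowest library was the third 1 week replicate, at 7.19 CPM, in which the hemoglobin genes were highest. Hbq1a, an alpha-like globin, was at 0.25 to 1.15 CPM, and the embryonic globins of the list are not analysed here.

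Of 30 listed genes of the red cell membrane and red cell maturation, 19 were measured. At 1 day, at 1 week and between the 2 fasted groups edgeR passed 0 of them (3, 2 and 2 with an unadjusted p under 0.05, 0 by DESeq2 and 0 by limma voom), with median log2 fold changes of -0.02, -0.01 and 0.03. Their summed level of 1158 to 1343 CPM came mostly from genes that neurons also use, with the spectrin Sptb, the adducin Add2 and the ankyrin Ank1 each above 200 CPM in every library. Slc4a1, the band 3 anion exchanger of the red cell membrane, was at 0.48, 0.34 and 1.29 CPM in the 1 day libraries, 0.59, 1.47 and 2.36 CPM in the 1 week libraries and 0.58, 0.55 and 0.39 CPM in the ad libitum libraries. Its highest library was again the third 1 week replicate, and its first 1 week replicate and 2 of its 1 day libraries lay in or close to the ad libitum range. Gypc, glycophorin C, was highest there too, at 3.05 CPM, with 2.04 and 1.15 CPM in the other 1 week libraries. It was at 0.91, 0.70 and 0.88 CPM in the 1 day libraries and 0.90, 2.63 and 1.91 CPM in the ad libitum libraries. Sptb at 344 CPM and the mitochondrial carrier Slc25a37 at 26.8 CPM also peaked in that replicate, against at most 338 and 26.6 CPM elsewhere. Trim58, a ubiquitin ligase of late red cell precursors, was instead lowest in that replicate, at 0.324 CPM against 0.577 to 1.57 CPM elsewhere, and Rhd, Ermap and Tspan33 lay within the range of the other libraries there. Aqp1, also listed as a choroid plexus marker, was among the genes with an unadjusted p under 0.05 at 1 day and at 1 week. It was at 3.47 CPM in the third ad libitum replicate, where choroid plexus markers were highest, against at most 0.521 CPM elsewhere. Ahsp, Hemgn, Epb42 and Rhag, further markers of red cell precursors, are not analysed here. Slc4a1, Gypc, Slc25a37, Trim58, Rhd, Ermap, Tspan33 and Aqp1 were named after their values were seen.

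Among 14 measured of 17 listed regulators of globin and Alas2 transcription or translation, edgeR passed 0 in each comparison (1 unadjusted at 1 day, 1 at 1 week and 3 between them, 0 by DESeq2 and 0 by limma voom). The median log2 fold change was 0.01 at 1 day, 0.03 at 1 week and 0.02 between them. Zbtb7a, a repressor of fetal globin in human red cells, averaged 189 ± 16.6 CPM at 1 day, 197 ± 34.2 CPM at 1 week and 185 ± 14.7 CPM ad libitum (SD, n = 3 each). Atrx, a chromatin remodeller needed for full alpha globin expression in humans, averaged 136 ± 18.2 CPM at 1 day, 127 ± 9.95 CPM at 1 week and 121 ± 10.5 CPM ad libitum. Bcl11a, also a repressor of fetal globin, was at 36.1 CPM in the third 1 week replicate and 13.4 to 21.7 CPM elsewhere. That replicate also stood apart in forebrain markers, and the part of forebrain tissue in its Bcl11a level was not tested. Gata2 was at 16.4 to 16.6 CPM in the 1 week libraries and 8.44 to 13.8 CPM elsewhere. Lmo2, Bach1 and Ireb2 were instead lowest in the third 1 week replicate. Bcl11a, Gata2, Lmo2 and Bach1 were named after their values were seen. Gata1, Klf1 and Nfe2, the erythroid activators, are not analysed here.

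Genes that take up and break down hemoglobin and heme were measured in 12 of 14 cases, and edgeR passed 0 (2 unadjusted at 1 day, 2 at 1 week and 1 between them). Limma voom also passed 0, and DESeq2 passed 1, at 1 week. That gene was Cd163, the macrophage receptor for hemoglobin bound to haptoglobin, at 3.32, 4.72 and 1.82 CPM in the 1 day libraries, 5.93, 5.48 and 9.20 CPM in the 1 week libraries and 1.5, 2.46 and 3.81 CPM in the ad libitum libraries. Every 1 week library was above every library of the other groups, and the third 1 week replicate was the highest. Its log2 fold change at 1 week was 1.4 (SE 0.41) with an edgeR adjusted p of 0.224, between 0.0245 (DESeq2) and 0.581 over 16 alternative settings, of which only DESeq2 passed it. Hmox1, the inducible heme oxygenase that opens the heme ring, averaged 3.40 ± 1.41 CPM at 1 day, 4.09 ± 0.498 CPM at 1 week and 4.59 ± 0.343 CPM ad libitum (SD, n = 3 each). Hmox2, its constitutive form, averaged 76.4 ± 28.3 CPM at 1 day, 68.3 ± 9.08 CPM at 1 week and 58.8 ± 3.54 CPM ad libitum. Cd163 and Hmox1 were named after their values were seen.

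Markers of the other cells of blood were low. Of the neutrophil list 5 of 14 genes were measured and summed to 5.99 to 11.6 CPM in the 1 day libraries, 8.94 to 11.7 CPM in the 1 week libraries and 10.7 to 12.1 CPM in the ad libitum libraries. Of the platelet list 7 of 12 genes summed to 9.52 to 9.73 CPM at 1 day, 9.45 to 10.7 CPM at 1 week and 9.20 to 12.02 CPM ad libitum, and of the lymphocyte list 6 of 15 genes summed to 10.4 to 14.4 CPM at 1 day, 11.6 to 16.0 CPM at 1 week and 15.5 to 16.1 CPM ad libitum. EdgeR passed 0 genes of these lists in each comparison. Without adjustment, p was under 0.05 for Pf4, a platelet chemokine, at 1 day and between the fasted groups and for Trac, the T cell receptor alpha constant region, at 1 day and at 1 week. DESeq2 passed Trac alone, at 1 week, and limma voom passed 0. In the third 1 week replicate, where globin was at 1482 CPM, these lists summed to 11.7, 10.7 and 12.5 CPM, values that other libraries also reached. Single genes ranged more widely than the sums, and Ppbp, a chemokine of platelets, was at 0.249, 0.129 and 0.277 CPM in the 1 day libraries, 0.270, 0.327 and 1.02 CPM in the 1 week libraries and 0.0969, 0.145 and 0.455 CPM in the ad libitum libraries. Like globin it was highest in the third 1 week replicate. So were Gp6 of the platelet list, at 0.578 CPM against at most 0.491 CPM elsewhere, and Cxcr2 of the neutrophil list, at 3.84 CPM against at most 3.26 CPM. The other measured genes of the 3 lists were highest in other libraries. Among them, Pf4 was highest in the first 1 week replicate and Lcn2, a neutrophil granule protein, in the second ad libitum replicate. Pf4, Ppbp, Gp6 and Cxcr2 were named after their values were seen, and the part of blood in the globin values was not tested. Defining genes of neutrophils such as S100a8 and S100a9 are not analysed here.

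Of 15 endothelial genes, all measured, 1 passed edgeR at 1 week against ad libitum (6 unadjusted, 2 by DESeq2, 2 by limma voom), and 0 at 1 day (9 unadjusted, 0 by DESeq2, 1 by limma voom) or between the fasted groups (2 unadjusted, 0 by DESeq2, 0 by limma voom). Slc2a1, the glucose transporter of the blood-brain barrier, was at 211, 187 and 149 CPM in the 1 day libraries, 213, 277 and 247 CPM in the 1 week libraries and 117, 135 and 138 CPM in the ad libitum libraries. It rose at 1 week, with a log2 fold change of 0.92 (SE 0.15) and an edgeR adjusted p of 0.038, which ranged up to 0.227 over 16 alternative settings and passed in 8 of them. Mfsd2a, a lipid transporter of the blood-brain barrier named after its values were seen, was at 42.3, 19.9 and 44.3 CPM in the 1 day libraries, 34.5, 34.4 and 39.2 CPM in the 1 week libraries and 19.6, 20.1 and 19.2 CPM in the ad libitum libraries. Its log2 fold change was 0.86 (SE 0.25) at 1 day and 0.88 (SE 0.25) at 1 week, with adjusted p of 0.407 and 0.215 by edgeR, 0.0717 and 0.03 by DESeq2 and 0.0232 and 0.0244 by limma voom. Of the 15 genes 11 had a log2 fold change below 0 at 1 day and 11 at 1 week, with medians of -0.27 and -0.18, while none passed edgeR as lower. The summed level of the list was 683, 667 and 614 CPM in the 1 day libraries, 739, 687 and 694 CPM in the 1 week libraries and 578, 658 and 690 CPM in the ad libitum libraries. Cldn5, a tight junction gene that marks brain endothelium, was at 27.6, 22.7 and 25.8 CPM in the 1 day libraries, 27.0, 18.6 and 19.9 CPM in the 1 week libraries and 25.8, 40.1 and 32.5 CPM in the ad libitum libraries. None of Slc2a1, Mfsd2a and Cldn5 had its highest level in the third 1 week replicate.

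That replicate differed from the rest in markers of forebrain glutamatergic neurons. Slc17a7, the vesicular glutamate transporter of cortical and hippocampal neurons, was at 9.50, 5.06 and 4.31 CPM in the 1 day libraries, 10.02, 41.9 and 501 CPM in the 1 week libraries and 33.2, 48.3 and 49.2 CPM in the ad libitum libraries. Neurod2 at 35.3 CPM, Neurod6 at 16.8 CPM and Tbr1 at 4.60 CPM were also highest in the third 1 week replicate, against at most 5.99, 7.72 and 1.94 CPM elsewhere, and Neurod6 and Tbr1 were named after their values were seen. Thus 4 of the 7 tested forebrain markers (8 were listed, 1 of them below the filter on low counts) were highest there, while Cux2 and Rasgrf2 were lowest there, and the list summed to 752 CPM in this library and 280 to 337 CPM in the other 8. EdgeR passed 0 of the 7 in each comparison (0 unadjusted at 1 day, 0 at 1 week and 5 between them, 0 by DESeq2 and 0 by limma voom). Markers of choroid plexus, by contrast, were highest in the third ad libitum replicate, at 414 CPM summed over the 9 tested of 10 listed genes against 32.2 to 79.2 CPM in the other libraries, most of it Ttr at 335 CPM, and globin there was at 446 CPM, between the other ad libitum libraries. EdgeR passed 0 of these 9 genes in each comparison (4 unadjusted at 1 day, 1 at 1 week and 0 between them, 0 by DESeq2 and 0 by limma voom). The 14 dopaminergic genes summed to 918 to 1786 CPM at 1 day, 1396 to 2188 CPM at 1 week and 1402 to 1837 CPM ad libitum, and edgeR passed 0 of them (1 unadjusted at 1 day, 0 at 1 week and 2 between them, 0 by DESeq2 and 0 by limma voom). Their median log2 fold change was -0.29 at 1 day (11 of 14 below 0), 0.15 at 1 week (10 of 14 above 0) and 0.31 between 1 week and 1 day (14 of 14 above 0), the same directions as the medians of the members, and the part of these neurons in the globin values was not tested. Th was highest in the first 1 week replicate, where globin was at 491 CPM. The part of dissection in the globin values was not tested.

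The genes whose pattern was most like the mean log2 level of the 5 members were ranked by Pearson's r over the 9 libraries among 16319 other genes of 1 CPM or more. The highest was Vipr1, a receptor for vasoactive intestinal peptide, with r = 0.96 (Spearman's rho 0.83), at 0.686, 0.620 and 0.692 CPM in the 1 day libraries, 0.937, 0.927 and 3.30 CPM in the 1 week libraries and 0.944, 1.01 and 0.802 CPM in the ad libitum libraries. Then came Trpm6, Enox1, Calhm5, Tanc1, Wipf3, Lmo4 and Plxna2, with r between 0.94 and 0.96, and 1 unnamed gene model. The members themselves had r between 0.89 (Hbb-bs) and 0.996 (Alas2) with their own mean, to which each contributes. These likenesses lean on the third 1 week replicate, and without it r was 0.90 for Vipr1, 0.76 for Wipf3 and 0.74 for Lmo4, but 0.95 for Trpm6. None of the 10 was among the 10 highest by Spearman's rho, and 1 of them (Wipf3) was among the 10 highest by deviations from group means, a list led by Cracdl (r = 0.99), Bcl11b (0.98) and Prdm16os (0.98) with Kcng1, Cttnbp2, Fam78b, Ccnjl and 2 unnamed gene models. Cracdl was at 91.7 CPM and Bcl11b at 32.3 CPM in the third 1 week replicate, against at most 27.9 and 19.6 CPM elsewhere. Slc17a7 had r = 0.91 with the members (0.76 without that replicate), Th 0.51 and Cldn5 -0.34. By deviations from group means, r was 0.91 for Slc17a7, 0.04 for Th and -0.23 for Cldn5. All of these values share the 9 libraries with their depth and composition, and are a description.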

How the data were processed

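A total of 9 substantia nigra libraries were analysed. The labels' protocols name a lipid tissue kit for the RNA, polyA selection and a directional library kit. The deposited values are estimated counts per gene in whole numbers and unscaled, and were used as they are. Per the submitters' processing notes, Salmon, DESeq2 1.40.2 and the builds GRCm39 and mm39 were used. For the version of Salmon, the annotation release and the summing to genes, nothing is stated in the labels or notes. The lowest row mean was 9.89 counts, so genes below about that level are not analysed here. No pair of libraries agreed within sampling noise (lowest chi-square per gene 26.4).

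The gene test was that of edgeR 4.0.16 (R 4.3.3), with TMM factors, filterByExpr (minimum count 10, minimum total 15, which removed 56 rows), a robust quasi-likelihood F test over all 9 libraries, two-sided, and Benjamini-Hochberg adjustment over 20535 genes with a threshold of 0.05. Standard errors were derived from the F statistics. Steps were tested on simulated data. CPM is on the TMM scale. Lengths, GC content and shared stretches of 31 bases came from the longest protein-coding transcript of GENCODE M21 (GRCm38), by gene identifier, and promoters from RefSeq GRCm38.p6. No coordinates were moved between builds. Ratios used CPM per kb and an exact permutation test of log2 ratios, and likeness used log2 CPM with a prior count of 2.

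The members and the lists were chosen with earlier results of these data known. Named genes are the members, list genes past the test or otherwise up to 4 of highest level per list, the 10 genes most like the members by each of the 2 rankings, and Th, Slc6a3, Slc17a7, Ttr and Cldn5, and other genes are said to be chosen after their values were seen. Some genes that the rule names are not reported here. Alternatives were DESeq2 1.42.0, no filter on low counts, RLE size factors, the 6 libraries compared, limma 3.58.1 voom with quality weights, the replicate number as a block, leaving out each library, leaving out both second replicates of the fasted groups, a pseudocount of 0.5 and Spearman's rho.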

Additional observations from a re-analysis of the deposited data

How the results depend on the processing

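The direction of every member's log2 fold change was the same in all 240 values computed under the alternatives, and 10 of these, all without the third 1 week replicate, moved by over 1 SD between libraries. Counts of genes past the test depended more on the setting. At 1 day against ad libitum edgeR passed 12, against 181 by DESeq2, 57 by limma voom, 26 with only the 6 libraries compared, 50 without both second replicates of the fasted groups and 2 with the replicate block, and 0 to 22 when 1 library was left out. At 1 week against ad libitum it passed 63, against 456 by DESeq2, 218 by limma voom, 155 with only the 6 libraries compared and 32 with the replicate block, and 8 to 121 when 1 library was left out. At 1 week against 1 day it passed 0, against 3 by DESeq2, and 0 to 3 when 1 library was left out. Members past the test at 1 week against ad libitum numbered 0, and 0 to 1 when 1 library was left out (Hbb-bs, without the first 1 week replicate). The replicate block passed 0 members in each comparison. The numbers were not taken to pair the libraries, because the labels do not say that they do. Deviations from group means correlated between -0.243 and 0.411 for same-numbered libraries and between -0.329 and 0.27 for differently numbered ones. The highest value was that of the second 1 day and second 1 week replicates, and these correlations cannot exclude a pairing. The adjusted p of the ratio of Hba-a1 to Hba-a2 was 0.0857, and 0.0286 to 0.543 when 1 library was left out, under 0.05 only without the third 1 day replicate. The cause of these shifts was not tested. The other 3 ratios stayed above 0.05 in every setting run. With 3 libraries a group, 1 library can carry a group's average, as the third 1 week replicate did here.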
